A study of Homo sapiens with 10 samples.

Results

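CD44, CD24, EPCAM, PROCR and NT5E are cell surface proteins used, alone or together, to sort breast cancer cells with stem cell properties. All probe sets of the deposited table that the platform annotation assigned to these 5 genes were taken, whatever their values there, and each was kept separate. The 5 genes themselves were chosen with earlier results of these data known. This gave 5 of the 12082 genes named in the deposited table and 12 of its 25750 probe sets, with 5 for CD44, 4 for CD24 and 1 each for EPCAM, PROCR and NT5E. All 12 passed the filter on low values and were among the 13883 probe sets tested.

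The study asked how breast cancer cells (BCCs) that differ in the activity of an Oct4A promoter differ in gene expression. MDA-MB-231, a basal-like human breast cancer line from a metastatic site, carried the plasmid pEGFP1-Oct3/4, in which the Oct4A promoter drives green fluorescent protein (GFP), and all cells had been selected with neomycin. By the labels, Oct4low BCCs were the lowest 5% of cells by GFP (4 arrays), Oct4hi BCCs were the top 5% (4 arrays), and Oct4med BCCs lay between them (2 arrays). The results text of the study describes a wider lowest gate, and the labels are followed here. Each Affymetrix U133 Plus 2.0 array received 100 ng of total RNA, and the values are log2 intensities, so that a difference of 1 is a doubling. The groups are thus gates on a reporter within 1 stably transfected line, not measurements of Oct4 protein, and the transcript of the sorted factor was not analysed here.

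CD44 is the receptor for the matrix polysaccharide hyaluronan, and its transcript is spliced into many isoforms. CD24 is a small, heavily glycosylated, lipid-anchored protein that binds P-selectin and Siglec-10, and breast cancer cells with high CD44 and low CD24 at the surface are enriched for tumor initiation in transplantation. EPCAM is an epithelial adhesion protein, PROCR is the endothelial protein C receptor, and NT5E (CD73) is the ectoenzyme that turns AMP outside the cell into adenosine. MDA-MB-231 is known for high CD44 and low CD24 surface staining. Because each probe set binds with its own efficiency, levels are not compared between genes, and differences between probe sets of a gene are compared only across groups.

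Median log2 intensity lay between 5.05 and 5.14 in the 10 arrays. Of 9 markers of the basal line 7 had a probe set, and 5 of these lay at or above the array median in every array. The summed intensities of all 7 were 16578 to 17647 for Oct4low BCCs, 14473 to 14759 for the middle gate and 12426 to 12779 for Oct4hi BCCs. VIM, 1 of the 7, was left with a single dim probe set. Among other cell types, 5 of 8 luminal markers with a probe set, 3 of 4 erythroid, 2 of 6 leukocyte, 3 of 8 stromal and 2 of 4 endothelial markers were at or above the median in every array. By mean percentile within their arrays the luminal markers ranged from 8.41 (PGR) to 98.1 (XBP1) and the erythroid ones from 15.0 (ALAS2) to 85.8 (EPOR). The leukocyte markers ranged from 5.85 (PTPRC) to 58.9 (ITGAM). The stromal ones ranged from 0.699 (LUM) to 89.8 (COL1A1) and the endothelial ones from 9.05 (KDR) to 86.5 (PECAM1). The part of these markers in the results was not tested. A control probe set for 28S ribosomal RNA averaged 13.60 and 13.57 in the Oct4low and Oct4hi arrays and 12.70 in the Oct4med arrays. A second 28S probe set averaged 11.98, 11.50 and 11.87 in the lowest, middle and top gates, and the dim remaining one 5.30, 5.27 and 5.21. The 18S control averaged 12.84, 12.98 and 13.14 in the same order. The Oct4med arrays were thus lowest for the brighter 28S probe sets and not for the 18S one, and the part of this in the Oct4med results was not tested.

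The start regions of CD44 and PROCR are shown because the transcripts of these genes moved in opposite directions between the extreme gates of the reporter. Each line gives the 250 bases upstream of a gene start listed by RefSeq in GRCh38.p14, for CD44 at chr11:35138921-35139170 and for PROCR at chr20:35171822-35172071, both on the forward strand. For PROCR and CD24 the listed starts lie inside the annotated gene spans, so these windows do not lie outside the gene. Windows were matched for CD44, CD24, PROCR and NT5E, not EPCAM. Capitals mark the GC box (GGGCGG or its reverse complement CCGCCC, the site of Sp1-type factors) and the TATA box (TATAAA or TTTATA).
CD44: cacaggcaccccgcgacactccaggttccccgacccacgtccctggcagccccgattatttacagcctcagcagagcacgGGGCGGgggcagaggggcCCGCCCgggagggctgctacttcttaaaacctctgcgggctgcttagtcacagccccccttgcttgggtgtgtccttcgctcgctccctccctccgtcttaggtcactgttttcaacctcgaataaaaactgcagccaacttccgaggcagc
PROCR: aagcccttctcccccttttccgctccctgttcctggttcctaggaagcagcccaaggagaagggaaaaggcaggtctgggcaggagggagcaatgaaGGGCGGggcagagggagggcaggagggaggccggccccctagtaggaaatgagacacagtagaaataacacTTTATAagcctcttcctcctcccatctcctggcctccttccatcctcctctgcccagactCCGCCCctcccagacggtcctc

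The CD44 window held GC boxes that begin 170 and 152 bases before the start. The PROCR window held GC boxes 153 and 22 bases before the start and a TATA box on the opposite strand 82 bases before it. No marked matches overlapped. GC boxes also stood in the NT5E window and in 2 of the 3 windows of CD24, and 42.6% of the 35116 RefSeq windows of this length held one, while 10.7% held the TATA box. The octamer ATGCAAAT, which POU factors such as Oct4 bind, was searched on both strands and stood in none of the windows of CD44, CD24, PROCR and NT5E, against 1.63% of all windows. The AP-1 site TGACTCA was likewise in none of them, against 4.2% of all windows. At shares this low, finding neither site in so few windows says little about these genes. The E-box CACCTG, a site of Snail and ZEB factors, was in 1 CD24 window, against 17.5% of all windows.

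Between Oct4hi and Oct4low BCCs, CD44 was lower in 4 of its 5 probe sets and PROCR was higher, while no probe set of CD24, EPCAM or NT5E passed the test. The test was limma's moderated test in a single model of all 10 arrays, with Benjamini-Hochberg adjustment over all 13883 probe sets and a threshold of 0.05. Of the 12 probe sets 1 was called higher and 4 lower, against 18.2% called higher and 16.7% called lower among all tested probe sets. The members' median log2 change was -0.12 and that of all tested probe sets was -0.0045. In bulk RNA, fewer cells that carry a transcript and less transcript per cell cannot be told apart.

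**Figure D1:**
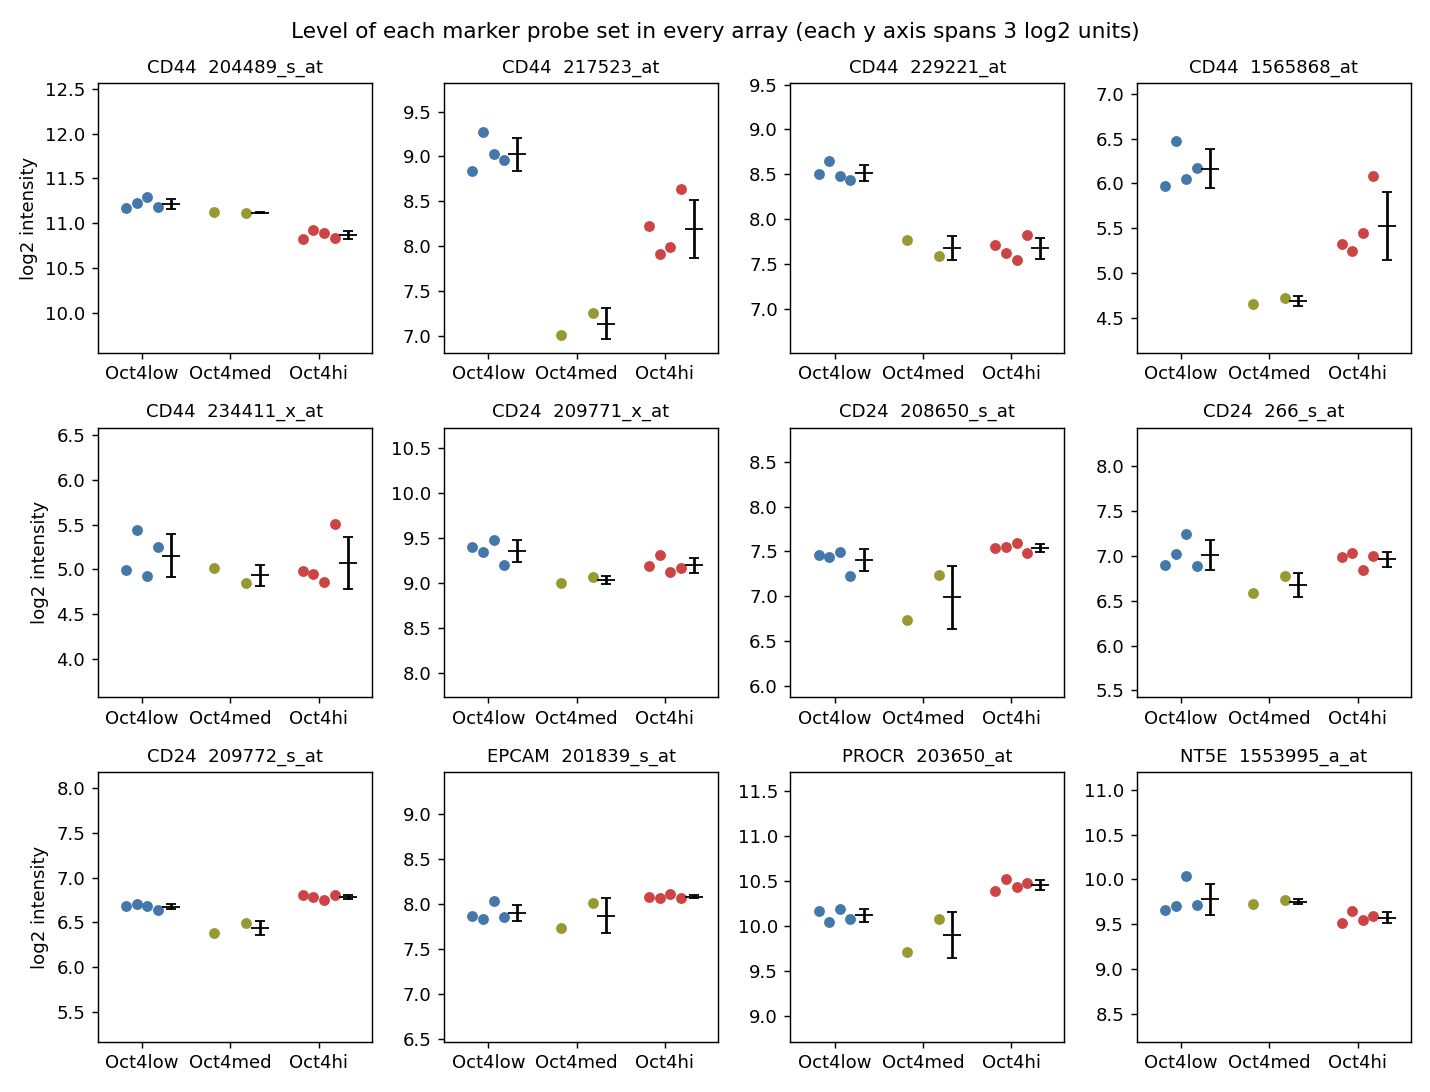
Log2 intensity of the 12 probe sets (y axes, each spanning 3 log2 units) in Oct4low, Oct4med and Oct4hi BCCs (x axes), with a point for each array and bars for the mean ± SD. The CD44 probe sets 217523_at, 229221_at and 1565868_at lie lower in Oct4med than in every Oct4low array, and PROCR is highest in the 4 Oct4hi arrays.

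The brightest CD44 probe set, 204489_s_at, whose annotation names a RefSeq CD44 transcript, read 11.17, 11.23, 11.29 and 11.18 in the Oct4low arrays and 11.13 and 11.11 in the Oct4med arrays. In the Oct4hi arrays it read 10.83, 10.93, 10.89 and 10.84. All 4 Oct4hi arrays lay below the other 6, and the 3 groups did not overlap. The change from Oct4low to Oct4med was small, at -0.10, and did not pass (limma adjusted p = 0.411). CD44 by this probe set fell by 0.35 on the log2 scale (SE 0.06, limma adjusted p = 0.00179) from Oct4low to Oct4hi, a 1.27-fold difference.

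Probe set 229221_at, whose annotation names an expressed sequence tag, read 8.50, 8.65, 8.48 and 8.44 in Oct4low and 7.71, 7.62, 7.55 and 7.82 in Oct4hi BCCs. The Oct4med arrays read 7.77 and 7.59, inside the Oct4hi range. CD44 by this probe set was lower in Oct4hi by a log2 change of -0.84 (SE 0.08, limma adjusted p = 2.31e-05), larger in size than that of 98.4% of all tested probe sets. The change from Oct4low to Oct4med had the same rounded size, -0.84 (SE 0.10, limma adjusted p = 0.000164). The Oct4hi minus Oct4med interval ran from -0.23 to 0.22.

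Probe set 217523_at, also annotated with an expressed sequence tag, gave another order. It read 8.84, 9.27, 9.02 and 8.96 in Oct4low, 7.01 and 7.26 in Oct4med, and 8.23, 7.92, 7.99 and 8.64 in Oct4hi BCCs. Here the middle gate was lowest, and no groups overlapped. The change from Oct4low was -1.89 in Oct4med (SE 0.18, limma adjusted p = 3.23e-05), a 3.70-fold difference, and -0.83 in Oct4hi (SE 0.15, limma adjusted p = 0.00134). Oct4hi exceeded Oct4med by 1.06 (SE 0.18, limma adjusted p = 0.00155).

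The dimmer probe set 1565868_at had the same order, with 5.97, 6.47, 6.05 and 6.17 in Oct4low, 4.65 and 4.73 in Oct4med, and 5.33, 5.24, 5.45 and 6.09 in Oct4hi BCCs. Oct4hi replicate 4 lay within the Oct4low range, and both Oct4med arrays lay below their own array medians, where background weighs most. The change from Oct4low was -1.47 in Oct4med (limma adjusted p = 0.000377) and -0.64 in Oct4hi (limma adjusted p = 0.0106). The same Oct4hi array was also the highest of its group for 217523_at, 229221_at and 234411_x_at, and without it the Oct4hi change of 1565868_at was -0.82. Oct4low replicate 2 was likewise the highest of its group for every CD44 probe set but the brightest.

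The last CD44 probe set, 234411_x_at, whose suffix marks probes that may bind other transcripts, lay near the array medians at 4.85 to 5.51 and passed no test. Its Oct4hi minus Oct4low interval ran from -0.40 to 0.24. The direction of CD44 between Oct4hi and Oct4med therefore differed by probe set. For 204489_s_at the change was -0.25 (limma adjusted p = 0.0364), and this call was lost without Oct4low replicate 2, either Oct4med array, or Oct4hi replicates 1 or 4 (limma adjusted p from 0.0540 to 0.163).

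**Figure D2:**
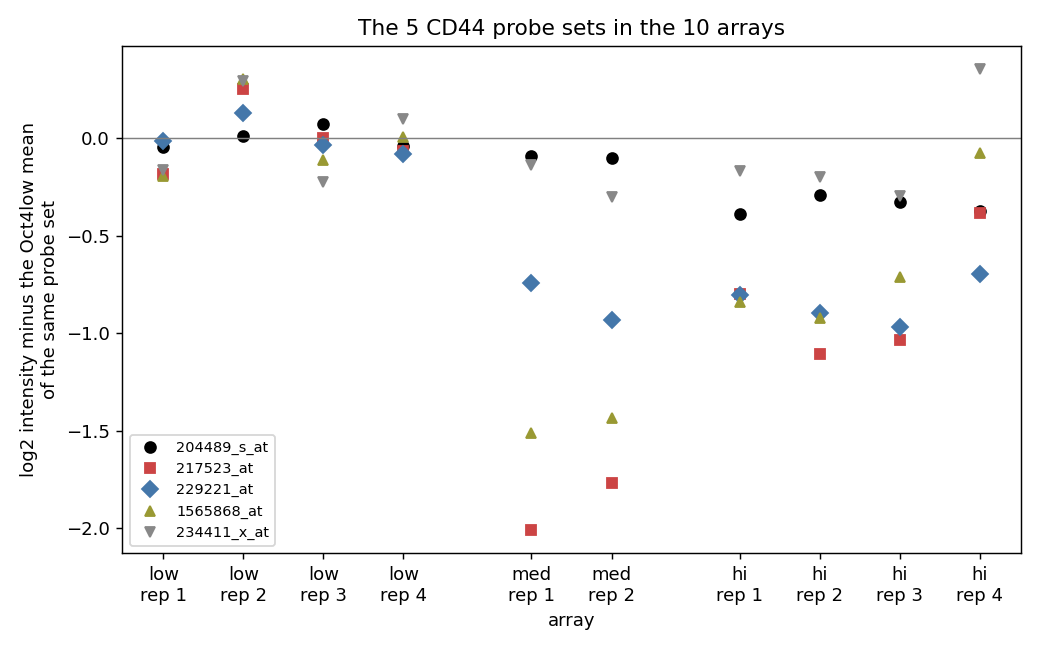
Log2 intensity of each CD44 probe set minus its own Oct4low mean (y axis) in the 10 arrays (x axis), with a marker for each probe set. In Oct4med, 204489_s_at stays near 0 while 217523_at and 1565868_at fall by over 1 log2 unit, and in Oct4hi replicate 4 these last probe sets lie nearer to 0 than in the other Oct4hi arrays.

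That CD44 probe sets moved by unequal amounts was looked at within arrays, a measure chosen after their values were seen. The level of 217523_at minus that of 204489_s_at averaged -2.19 ± 0.17 (SD, n = 4) in Oct4low and -3.98 ± 0.18 (SD, n = 2) in Oct4med BCCs, without overlap. The two-sided exact permutation p was 0.0667, the smallest that 2 against 4 arrays allow, so that no difference could have passed (0.156 after Benjamini-Hochberg over the 7 such differences in this comparison). For 229221_at the difference averaged -2.70 ± 0.10 (SD, n = 4) in Oct4low and -3.20 ± 0.15 (SD, n = 4) in Oct4hi BCCs, again without overlap. Its exact permutation p was 0.0286, the smallest for 4 against 4 arrays (0.0667 adjusted over the 7). In the same comparison the differences of 217523_at, 1565868_at and 234411_x_at overlapped (exact permutation p = 0.114, 0.286 and 0.286). For 234411_x_at the difference moved in the opposite direction, by 0.27. With these numbers of arrays the values stand as a description, and which isoforms or transcript ends the probe sets read was not tested.

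PROCR, which holds protein C at the cell surface so that thrombomodulin-bound thrombin can activate it, is read by 203650_at. It measured 10.16, 10.04, 10.19 and 10.08 in Oct4low and 9.71 and 10.08 in Oct4med BCCs. In the 4 Oct4hi arrays it was 10.39, 10.52, 10.43 and 10.48, above all others. PROCR was higher in Oct4hi than in Oct4low by 0.34 (SE 0.09, limma adjusted p = 0.00914), a 1.26-fold difference, and higher than in Oct4med by 0.56 (SE 0.10, limma adjusted p = 0.00251). Oct4med and Oct4low overlapped, and their difference of -0.23 did not pass (limma adjusted p = 0.149). The Oct4med arrays differed by more than the range of any other group, and without Oct4med replicate 2 this difference was -0.41 (limma adjusted p = 0.0284).

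EPCAM by 201839_s_at read 7.87, 7.83, 8.03 and 7.86 in Oct4low and 7.73 and 8.01 in Oct4med BCCs. The Oct4hi arrays read 8.08, 8.07, 8.11 and 8.07 and lay above the other 6, but by a small margin. EPCAM was 0.18 higher in Oct4hi than in Oct4low (95% interval 0.01 to 0.35, limma adjusted p = 0.0897), which did not pass after adjustment. Without Oct4low replicate 3 the limma adjusted p was 0.0466.

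NT5E by 1553995_a_at read 9.66, 9.70, 10.04 and 9.71 in Oct4low, 9.73 and 9.77 in Oct4med, and 9.51, 9.64, 9.55 and 9.59 in Oct4hi BCCs. The Oct4hi arrays were the 4 lowest. The difference from Oct4low was -0.20 (95% interval -0.39 to -0.01) and did not pass (limma adjusted p = 0.0922).

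CD24 was read by 4 probe sets that differed in sign between the extreme gates, and near-identical CD24 copies in the genome make the source of their signal uncertain. The brightest, 209771_x_at, read 9.41, 9.34, 9.48 and 9.20 in Oct4low, 9.00 and 9.07 in Oct4med, and 9.19, 9.31, 9.13 and 9.16 in Oct4hi BCCs. Its Oct4hi minus Oct4low change was -0.16 (95% interval -0.33 to 0.01, limma adjusted p = 0.138). The other changes were 0.14 for 208650_s_at, -0.05 for 266_s_at and 0.11 for 209772_s_at, none past the threshold (limma adjusted p = 0.337, 0.730 and 0.204). Within arrays, 208650_s_at minus 209771_x_at averaged -1.95 ± 0.03 (SD, n = 4) in Oct4low and -1.65 ± 0.09 (SD, n = 4) in Oct4hi BCCs, and 209772_s_at minus 209771_x_at averaged -2.68 ± 0.11 (SD, n = 4) and -2.41 ± 0.08 (SD, n = 4). Neither pair of groups overlapped, and the exact permutation p was 0.0286 for each (0.0667 adjusted over the 7 differences), the smallest that 4 against 4 arrays allow. For 266_s_at the difference averaged -2.34 ± 0.12 (SD, n = 4) and -2.23 ± 0.06 (SD, n = 4), with overlap (exact permutation p = 0.143). These differences are a description, chosen after the values were seen.

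In the comparison of Oct4med with Oct4low BCCs, 3 of 5 CD44 and 3 of 4 CD24 probe sets were lower, and EPCAM, PROCR and NT5E did not pass. The brightest CD44 probe set, 204489_s_at, did not pass either (-0.10, limma adjusted p = 0.411). The CD24 calls were less stable than those of CD44, as given below. Of the 12 probe sets 6 were called lower, where 15.5% of all tested probe sets were called lower and 5.19% higher. The 6 called read only CD44 and CD24, so they are not 6 separate genes, and all rest on the same 2 Oct4med arrays. The members' median log2 change was -0.28 and that of all tested probe sets 0.01. This comparison shares the Oct4low arrays with the one above.

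For CD24 the middle gate was lowest in all 4 probe sets by group mean. Probe set 208650_s_at read 7.46, 7.44, 7.50 and 7.22 in Oct4low, 6.74 and 7.24 in Oct4med, and 7.54, 7.55, 7.59 and 7.48 in Oct4hi BCCs. Probe set 209772_s_at read 6.68, 6.71, 6.68 and 6.64 in Oct4low, 6.38 and 6.49 in Oct4med, and 6.80, 6.78, 6.75 and 6.80 in Oct4hi BCCs. One Oct4med array fell within the Oct4low range for 208650_s_at, whereas both lay below it for 209772_s_at.

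The changes from Oct4low to Oct4med were -0.32 for 209771_x_at, -0.42 for 208650_s_at and -0.24 for 209772_s_at (limma adjusted p = 0.0343, 0.0370 and 0.0463). Probe set 266_s_at, at 6.89 to 7.24 in Oct4low and 6.58 and 6.77 in Oct4med, missed the threshold with -0.34 (limma adjusted p = 0.0540). All 3 CD24 calls were lost without Oct4med replicate 1, where the changes were -0.29, -0.17 and -0.18, and of the 10 fits with an array left out the call was lost in 5 for 209771_x_at, in 6 for 208650_s_at and in all 10 for 209772_s_at. Under 9 of the 11 other settings tried, some of which did not test every CD24 probe set, the 3 CD44 probe sets were the only members called in this comparison. The 3 CD44 calls held when any 1 array was left out, with limma adjusted p up to 0.00943.

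From Oct4med to Oct4hi BCCs, CD24 rose in 2 probe sets, CD44 rose in 2 and fell in 1, and PROCR rose. Of the 12 probe sets 5 were called higher and 1 lower, against 18.1% and 8.6% of all tested probe sets. CD24 was higher in Oct4hi by 0.55 for 208650_s_at (limma adjusted p = 0.00807) and by 0.35 for 209772_s_at (limma adjusted p = 0.00677). The brightest CD24 probe set differed by 0.16 (95% interval -0.05 to 0.37). Without Oct4med replicate 1 the number called fell from 6 to 2, and both CD24 calls were lost, with changes of 0.30 for 208650_s_at and 0.29 for 209772_s_at. An F-test over the 3 groups in the same model called 8 of the 12, against 44.4% of all tested probe sets, leaving out CD44 234411_x_at, CD24 266_s_at, EPCAM and NT5E.

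**Figure D3:**
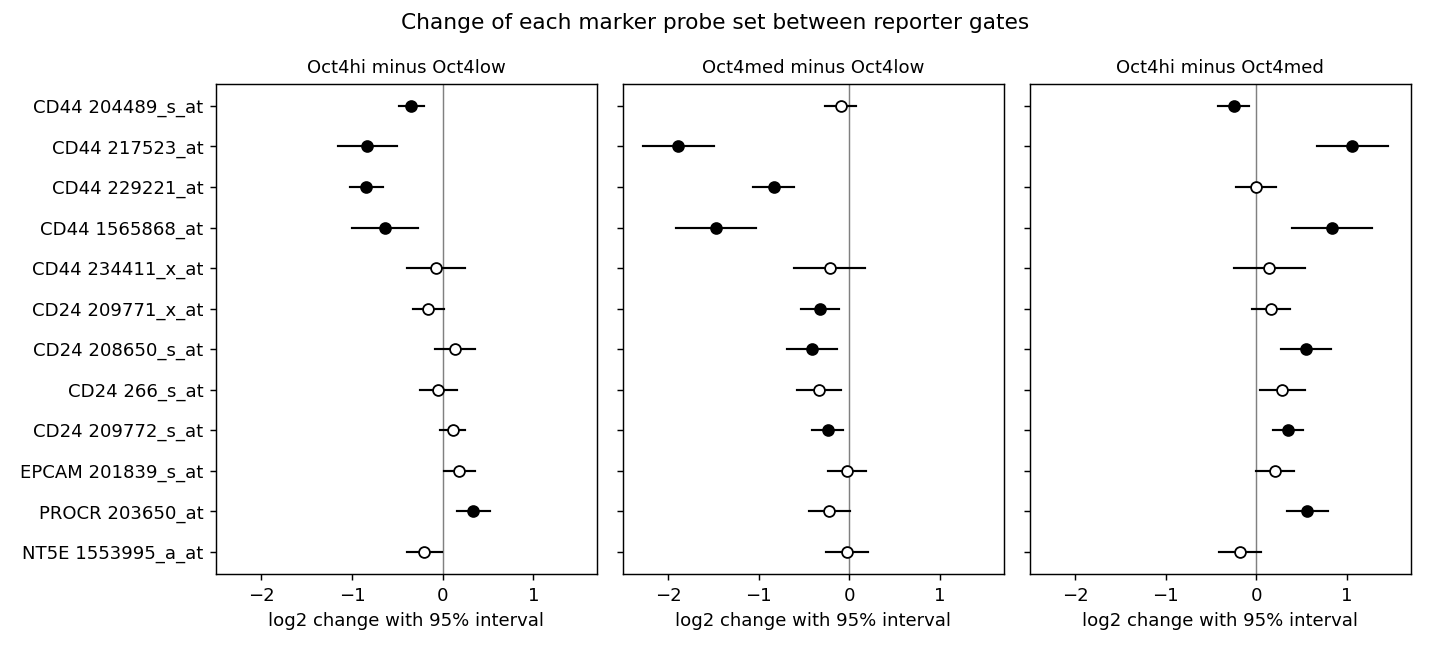
Log2 change with its 95% interval (x axis) of the 12 probe sets (y axis) in the 3 comparisons, which share arrays. Filled points passed an adjusted p under 0.05: CD44 lies left of 0 in 4 probe sets and PROCR right of 0 in Oct4hi minus Oct4low, and no point is filled on the right in Oct4med minus Oct4low.

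Genes around each marker were taken from lists and represented by their brightest tested probe set, of 7644 genes in all. Among those genes 20.4% were called higher and 14.7% lower in the Oct4hi against Oct4low comparison, and for Oct4med these shares were 5.68% and 11.7%. Of the 15 genes of the hyaluronan system of CD44 only 3 were tested, and all 3 were called between the extreme gates. CEMIP, which binds and breaks down hyaluronan, was lower in Oct4hi by a log2 change of -1.33 (7.23 ± 0.11 to 5.90 ± 0.11, SD, n = 4 each, limma adjusted p = 3.98e-07). UGDH, which makes the UDP-glucuronate needed for hyaluronan, was lower by -0.34, and HMMR, a hyaluronan receptor that also works on the mitotic spindle, was higher by 0.31. In Oct4med the 3 did not pass; CEMIP changed by 0.27 (limma adjusted p = 0.082).

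Of 9 tested genes that anchor, cut or splice CD44, 3 were higher in the top gate than in the lowest and 6 did not pass. The called genes were EZR and RDX, linkers of the CD44 tail to actin, with log2 changes of 0.78 and 0.52, and ADAM10, a protease that sheds the CD44 ectodomain, with 0.42. ADAM17, another protease that can shed CD44, changed by -0.08 and did not pass (limma adjusted p = 0.483). In Oct4med BCCs 2 were lower and 7 did not pass. The lower genes were NF2 (merlin), which competes with these linkers, at -0.39, and HNRNPM, which takes part in CD44 exon splicing, at -0.80. The tested HNRNPM probe set was rather dim, at 6.72 in Oct4low and 5.92 in Oct4med BCCs, and its relation to the CD44 probe sets was not tested.

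Of 10 tested genes of the protein C, thrombin and coagulation list, 2 were higher and 1 was lower at the top gate than at the lowest. THBD, thrombomodulin, the partner of PROCR in protein C activation, averaged 7.58 ± 0.07 (SD, n = 4) at the lowest gate, 6.97 ± 0.14 (SD, n = 2) at the middle one and 8.37 ± 0.13 (SD, n = 4) at the top. Its log2 change was 0.79 in Oct4hi (limma adjusted p = 3.80e-05) and -0.61 in Oct4med (limma adjusted p = 0.00156) against Oct4low. THBD thus had the same order of group means as PROCR, but the order was not particular to this pair. F3, PLAT and SERPINA5 of this list had it too, as did EPCAM and some CD24 probe sets. For PROCR the step from Oct4low to Oct4med did not pass (limma adjusted p = 0.149). SERPINE2, an inhibitor of thrombin, was higher in Oct4hi by 0.81, and TFPI, the inhibitor of the tissue factor pathway, was lower by -0.86. In Oct4med 1 was higher (PLAU, 0.29) and 3 were lower, of which F2RL2, a protease-activated receptor, changed by -0.95.

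**Figure D4:**
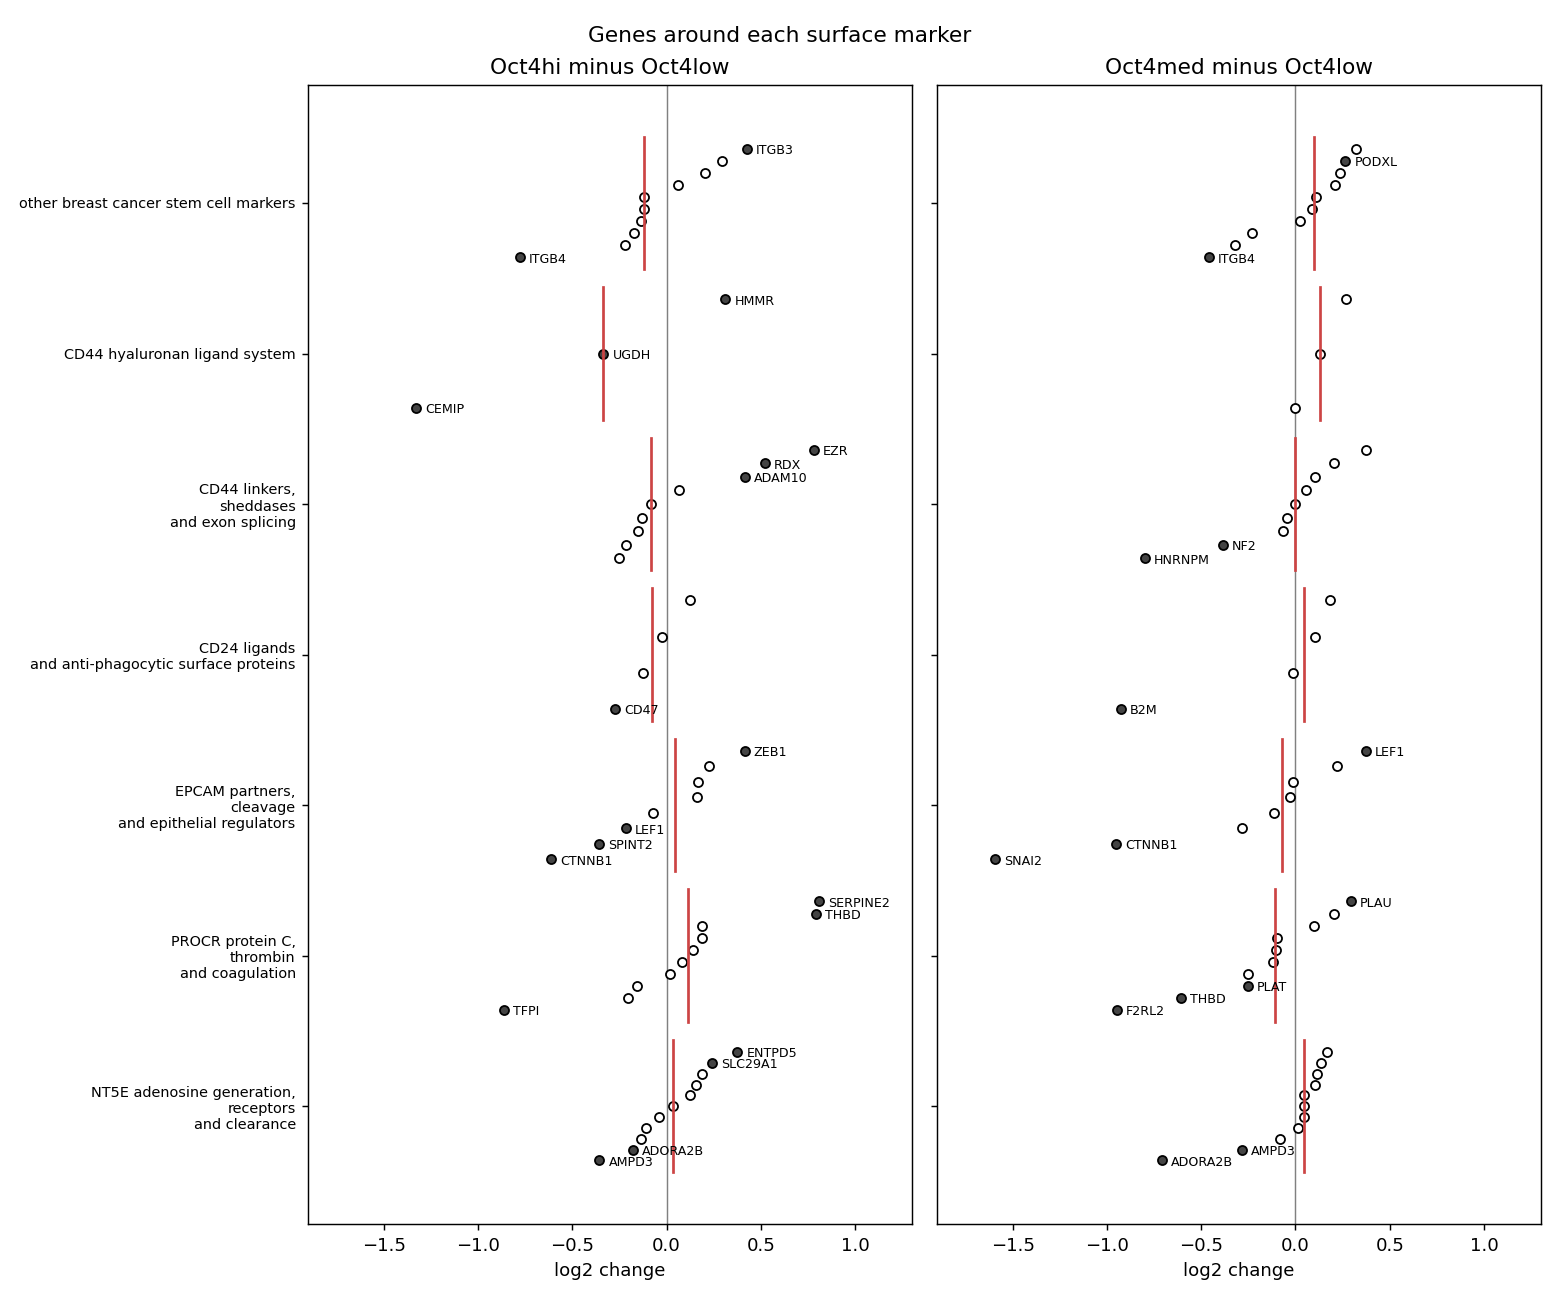
Log2 change (x axes) of tested genes in each list (y axis) for Oct4hi and Oct4med BCCs against Oct4low BCCs, with a point for each gene, filled where the adjusted p was under 0.05, and a red line at the list's median. CEMIP lies farthest left in Oct4hi, and SNAI2 in Oct4med.

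Of 8 tested EPCAM partners and epithelial regulators, 1 was higher and 3 were lower when Oct4hi was set against Oct4low. ZEB1, a repressor of epithelial genes, was higher by 0.41, while SPINT2, an inhibitor of cell surface serine proteases, was lower by -0.36. The tested CTNNB1 (β-catenin) probe set was lower by -0.61 and LEF1 by -0.22. SNAI2, another repressor of epithelial genes, had the largest change of the list in the middle gate, at 9.07 ± 0.05 (SD, n = 2), against 10.66 ± 0.08 in Oct4low BCCs (SD, n = 4) and 10.83 ± 0.04 in the top gate (SD, n = 4). In Oct4med 1 gene was higher (LEF1, 0.37) and 2 were lower (SNAI2, -1.59, and CTNNB1, -0.95).

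Around NT5E, 11 genes of a list drawn up for adenosine generation, receptors and clearance were tested, not all of which act on adenosine directly. Between the extreme gates 4 were called, 2 of them higher and 2 lower in Oct4hi. ENTPD5, a nucleoside diphosphatase, was higher by 0.38 and SLC29A1, a nucleoside transporter, by 0.24. AMPD3, an AMP deaminase, was lower by -0.36 and ADORA2B, an adenosine receptor, by -0.18. ADORA2B was lower still in Oct4med, by -0.71 (limma adjusted p = 7.40e-05), where 2 genes were lower and 9 did not pass. Among 4 tested genes of CD24 ligands and other anti-phagocytic proteins, CD47, the "do not eat me" ligand of SIRPA, was lower in Oct4hi by -0.27 and a dim B2M probe set was lower in Oct4med by -0.93.

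Other markers used for breast cancer stem cells showed 1 higher and 1 lower of 10 tested in Oct4hi against Oct4low BCCs. ITGB3 was higher by 0.43 and ITGB4 lower by -0.78, while the integrin chains ITGA6 (0.29) and ITGB1 (0.20) did not pass (limma adjusted p = 0.103 and 0.199). In Oct4med PODXL was higher by 0.26 and ITGB4 lower by -0.46.

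The genes whose brightest probe set followed each marker most closely over the 10 arrays are given as a description, since arrays of a group share its level. For CD44 204489_s_at they were RTN2, NRCAM and PBXIP1 (Pearson r of 0.992, 0.990 and 0.989). For PROCR they were MRS2, UBE2G2 and PYGL (r of 0.976, 0.972 and 0.971), and for EPCAM ZNF551, RTN4 and HNRNPDL (r of 0.979, 0.953 and 0.952). IL18, ATG14 and TCF12 were closest to CD24 209771_x_at (r of 0.979, 0.944 and 0.933), and ERAP1, KLF3 and SHFL to NT5E (r of 0.958, 0.948 and 0.945). Between the members' own probe sets, CD44 217523_at and 1565868_at had an r of 0.980, whereas 217523_at and the brightest CD44 probe set had an r of 0.315.

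By RefSeq in GRCh38.p14, CD44 lies at chr11:35139171-35232402, CD24 at chr6:106969831-106976855, EPCAM at chr2:47369311-47387020, PROCR at chr20:35171096-35216259 and NT5E at chr6:85450083-85495784.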

How the data were processed

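Total RNA of sorted MDA-MB-231 transfectants was hybridized to Affymetrix U133 Plus 2.0 arrays. The deposited values are log2 intensities that the authors obtained in BRB-Array Tools from background-corrected intensities by RMA normalization. The authors' methods also name filters for features near background or of little variation. They report 25750 features left by these filters, which is the number of probe sets deposited. Only 11543 deposited probe sets met that variation filter as applied here, and why fewer met it was not tested. Symbols came from the platform annotation. Of the deposited probe sets, 18683 had 1 symbol, 799 several and 6268 none.

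Groups were taken from the sample titles, which call the arrays biological replicates. The 23 control probe sets were dropped, a probe set was kept if 2 or more arrays read it at the array median or higher, and limma 3.58.1 (R 4.3.3) was fitted with a mean per group (lmFit, eBayes, two-sided, Benjamini-Hochberg over all 13883 probe sets). The procedure was run on simulated data with independent values and a shift in the Oct4hi arrays only, with the outcome not given here. That run did not cover the Oct4med comparisons. The number of arrays limits the precision. From each gene list, up to 4 genes with the largest change among those called were named in each comparison, beside genes given for their role; likeness used the 3 highest r. The members, gene lists and motifs were chosen with earlier results of these data known. Alternatives covered the filter, normalization, array weights, variance prior, arrays fitted, the methods' t-test without its random variance model, replicate block, probe set class and each array left out.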

Additional observations from a re-analysis of the deposited data

Results flagged for a closer look

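Each marker probe set was checked for an array far from the others of its group, in the 24 groups of 4 arrays. Only NT5E 1553995_a_at in Oct4low BCCs was picked out, with replicate 3 at a log2 intensity of 10.04, the nearest array at 9.71 and the lowest at 9.66. The gap made up 0.862 of the range, above Dixon's 95% critical value for groups of this size, and about 1 in 20 groups passes by chance. Without this array the Oct4hi minus Oct4low change of NT5E was -0.12, against -0.20 with it, and neither passed the test.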

How the results depend on the processing

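Of 714 log2 changes recomputed under the alternatives, 620 kept their direction and side of the threshold, 62 lost the call, 16 gained it and 16 changed sign; except where a value below shows it, causes were not tested. The number of member probe sets called stayed at 5 to 7 between Oct4hi and Oct4low under every alternative that tested all 12, and at 5 to 6 with an array left out.

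Between Oct4med and Oct4low the 6 called became 3 with no filter, under the variation filter of the methods, after quantile normalization or a shift to a common median, with array quality weights, with only the 2 groups compared, by the methods' t-test (run without its random variance model, so not the full test of the methods), with the replicate number as a block and without _x_at and _s_at probe sets, and 3 to 5 with an array left out. Between Oct4hi and Oct4med the 6 became 3 under the variation filter, 2 by the methods' t-test and 3 without _x_at and _s_at probe sets, and 2 to 7 with an array left out, the lowest without Oct4med replicate 1. Leaving out the _x_at and _s_at probe sets left 5 of the 12 to test, with none of CD24 or EPCAM. The variation filter left 7. In both comparisons the counts under these settings are thus not counts over all 12. By the F-test the 8 became 5 under the variation filter, which kept 7 of the 12, 4 without _x_at and _s_at probe sets, which left 5, and 5 to 8 with an array left out. By the methods' t-test the PROCR change of 0.56 from Oct4med to Oct4hi had an adjusted p of 0.0599, and CD44 1565868_at lost its calls in Oct4hi against Oct4low (0.0799) and Oct4med (0.150), as did 217523_at (0.0787) and CD24 208650_s_at (0.106) in Oct4hi against Oct4med.

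For CD44 204489_s_at the Oct4hi minus Oct4med change lost its call with no filter, under the variation filter and with only the 2 groups compared (all -0.25), after a shift to a common median (-0.21), with array weights (-0.24) and with the replicate block (-0.25), and ranged from -0.27 to -0.23 with an array left out. The other CD44 probe sets in its place gave 1.06 (217523_at), -0.0039 (229221_at), 0.83 (1565868_at) and 0.14 (234411_x_at). They gave -1.89, -0.84 and -1.47 for Oct4med minus Oct4low (the first 3 of these), and 234411_x_at gave -0.077 for Oct4hi minus Oct4low. The near-zero Oct4hi minus Oct4med change of 229221_at became 0.033 after the median shift and 0.020 with the replicate block, and ranged from -0.097 to 0.090 with an array left out. Leaving out an array moved 234411_x_at between -0.22 and 0.019 (Oct4hi minus Oct4low) and between -0.0029 and 0.22 (Oct4hi minus Oct4med).

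For CD24 209771_x_at the Oct4med minus Oct4low call was lost with no filter, with only the 2 groups compared and by the methods' t-test (all -0.32), after quantile normalization (-0.26) or a median shift (-0.32), with array weights (-0.31) and with the replicate block (-0.36), and the change ranged from -0.38 to -0.28 with an array left out. In its place 266_s_at gave -0.34. Quantile normalization gave a called Oct4hi minus Oct4low change of -0.25, where 208650_s_at gave 0.14 and 209772_s_at 0.11. For Oct4hi minus Oct4med these gave 0.55 and 0.35. The Oct4hi minus Oct4low change of 266_s_at ranged from -0.090 to 0.029 with an array left out.

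The EPCAM change from Oct4low to Oct4hi gained a call under the stricter filter and by the methods' t-test (both 0.18) and with array weights (0.20), and ranged from 0.16 to 0.23 with an array left out. Its Oct4med minus Oct4low change became 0.056 after quantile normalization and 0.0014 with the replicate block, and ranged from -0.16 to 0.11 with an array left out. Its Oct4hi minus Oct4med change ranged from 0.073 to 0.35, called without Oct4med replicate 2. PROCR ranged from -0.41 to -0.044 in Oct4med minus Oct4low. NT5E gained a call in Oct4hi minus Oct4low after quantile normalization (-0.30) and with an intensity trend and robust prior (-0.20), and in Oct4hi minus Oct4med after quantile normalization (-0.34). Its Oct4med minus Oct4low change became 0.039 after quantile normalization, 0.0066 with array weights and 0.022 with the replicate block, and ranged from -0.064 to 0.061 with an array left out.

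Same-numbered arrays of different groups deviated together with an r of -0.26 to 0.28 over 8 pairs, above 0.1 in 2, and an array matched its own number best in 4 of 16 cases, so the numbers were not taken as pairs. Deviations of the 2 Oct4med arrays mirror each other, so the 8 pairs are not separate checks. Some differently numbered arrays had a higher r, as Oct4med replicate 1 with Oct4hi replicate 3 (0.51) and Oct4low replicate 2 with Oct4hi replicate 4 (0.41). The paper describes 4 experiments, and a pairing under other numbers was not tested. With an Oct4med array left out, the lone array was assumed to vary like the other groups.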
